A study of Mus musculus with 2 samples.

Results

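The Ikaros family comprises 5 zinc finger transcription factor genes in the mouse, Ikzf1 to Ikzf5, which encode Ikaros, Helios, Aiolos, Eos and Pegasus. They were found by gene symbol in the deposited table, where each symbol had 1 row, so that all 5 members of 54532 gene rows were available. Their RNA was measured in CD4+ BDC-2.5 effector T cells, in 1 library from 2.5HIP-PLG-treated and 1 library from untreated mice. BDC-2.5 is a transgenic T cell receptor from a T cell clone that recognises pancreatic beta cells. The cells had been activated, transferred into NOD.scid recipients (mice with no T or B cells of their own) and sorted from spleen and lymph nodes 6 days later as CD4-positive cells negative for a green fluorescent Foxp3 reporter. The treated recipients had received 1.75 mg of 2.5HIP-PLG, nanoparticles that carry the hybrid insulin peptide to which these cells respond, by intravenous injection 1 day after transfer, and the others were left untreated. Both groups shared the transgenic receptor, the reporter, the activation and the NOD.scid host. No label states the animals' age. Cells of 4 mice were pooled per group, so the spread between mice was not measured and neither library has a replicate.

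Ikaros family proteins bind DNA through zinc fingers near the amino end and pair with each other through a further set of fingers at the carboxyl end. They bring chromatin complexes, among them the nucleosome remodelling and deacetylase complex NuRD, to their target genes and can repress or maintain transcription there. In T cells Ikaros sets thresholds of activation and restrains interleukin 2, Aiolos is expressed in several effector and helper subsets, Helios is best known from regulatory T cells and from T cells under chronic stimulation, and Eos acts with Foxp3 in regulatory T cells. Pegasus is the most divergent member, and its role in T cells is less well known.

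The kinship of the family can be read from the finger that lies second in order in Ikaros, Helios, Aiolos and Eos and contacts DNA. Its coding sequence is shown for each member because it shows which genes share a DNA-binding surface while their transcripts can still be told apart. It runs from the first cysteine to the last histidine codon of the finger, 63 bases in 21 codons, on the coding strand, and capitals mark the codons of the 2 cysteines and 2 histidines that hold the zinc ion.
Ikzf1: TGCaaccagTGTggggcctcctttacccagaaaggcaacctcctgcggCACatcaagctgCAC
Ikzf2: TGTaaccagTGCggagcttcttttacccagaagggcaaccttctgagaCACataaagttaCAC
Ikzf3: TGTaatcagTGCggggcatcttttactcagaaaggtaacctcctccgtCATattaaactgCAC
Ikzf4: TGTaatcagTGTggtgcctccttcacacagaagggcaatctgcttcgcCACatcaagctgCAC
Ikzf5: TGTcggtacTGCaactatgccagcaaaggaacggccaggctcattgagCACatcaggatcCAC

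These sequences come from GENCODE M21 transcripts on GRCm38, the build named in the submitters' processing notes. The Ikzf1 finger lies at chr11:11754024-11754086 on the plus strand in exon 6. The other fingers lie on the minus strand, at chr1:69570581-69570643 in exon 5 of Ikzf2, chr11:98488940-98489002 in exon 5 of Ikzf3, chr10:128640229-128640291 in exon 5 of Ikzf4 and chr7:131393759-131393821 in exon 3 of Ikzf5. In Ikzf2, Ikzf3 and Ikzf4 all 21 codons encode the same amino acids as in Ikzf1, although only 51, 51 and 53 of the 63 bases are the same. For Ikzf5 the finger most like it was taken, the first in its protein, and it shares 6 of 21 amino acids and 29 of 63 bases with Ikzf1. Over all annotated transcripts, the longest stretch of identical bases between any pair of members was 32 bases, between Ikzf2 and Ikzf4, and the shortest such maximum was 15 bases. The read length is not stated.

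The RNA libraries summed to 22580687 counts after 2.5HIP-PLG and 26036669 counts without treatment, so 1 count was worth 0.0443 and 0.0384 CPM (counts scaled to a library total of 1000000). T cell identity was plain in both libraries, with 12 of 12 CD4 T cell markers measured and Cd4 itself at 41743 and 39739 counts. With 1 library per group there is no replicate check, no test across samples and no p-value. Each ratio below divides CPM after 2.5HIP-PLG by CPM without treatment, and its exact 95% interval accounts for counting error alone. To be called higher or lower, a gene needed a ratio of 1.5 or more in that direction together with an interval that excludes 1. Such a call describes these 2 libraries, not the treatment in general. Of the 12 CD4 T cell markers, 0 were called in either direction. Among all genes with a count sum of at least 1000, 2.71% were called higher and 2.86% lower. The markers were not level, since 9 of the 12 had a ratio above 1. Their median log2 ratio was 0.31, against -0.01 over all measured genes. Wherever a pair of values is given, that of 2.5HIP-PLG comes first. Because the RNA came from bulk cells, a change in the number of cells that express a gene and a change in RNA per cell cannot be told apart.

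Helios and Aiolos RNA were both close to 2-fold higher after 2.5HIP-PLG, while Ikaros and Pegasus differed little and Eos was scarce and lower. Of the 5 members, all of which had enough counts to be measured, 2 were called higher, 1 lower and 2 neither. Among all 13902 measured genes 5.15% were called higher and 9.7% lower, and among the 7022 genes with a count sum of at least 1000, where 4 of the members lie, 2.71% were higher and 2.86% lower. The members' median log2 ratio was 0.15, against -0.01 over all measured genes. Members were chosen as a family and not for these values, but with earlier results of these libraries known, so the counts are given as a description.

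**Figure D1:**
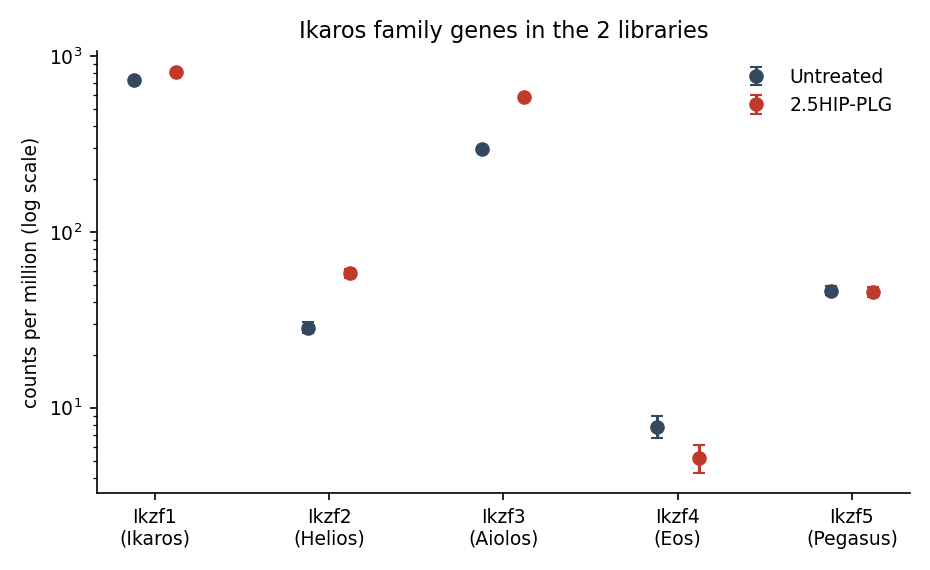
Level of each Ikaros family gene in the 2 libraries, in CPM on a log scale; points are single libraries of pooled cells and bars are exact 95% Poisson intervals for counting error. Ikzf2 and Ikzf3 sit higher after 2.5HIP-PLG, Ikzf4 sits lower, and these levels are not corrected for gene length.

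Ikzf1 (ENSMUSG00000018654, chromosome 11, 11685003 to 11772926), which encodes the founding member Ikaros, gave 18331 counts with 2.5HIP-PLG and 19055 without. These are 811.8 CPM (95% interval 800.1 to 823.6) and 731.9 CPM (721.5 to 742.3). The ratio was 1.11 (1.09 to 1.13), a difference larger than counting error but far below the size rule. The 3 protein-coding genes nearest to Ikzf1 in log2 CPM over the 2 libraries were Arpc1b, Arpc2 and Hmgb2, at distances of 0.031, 0.042 and 0.047, with 2 points behind each distance.

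Ikzf3 (ENSMUSG00000018168, chromosome 11, 98464902 to 98546031), which encodes Aiolos, had 13163 counts after 2.5HIP-PLG and 7657 without, or 582.9 (573.0 to 593.0) and 294.1 CPM (287.5 to 300.7). The ratio was 1.98 (1.93 to 2.04), above 96.9% of all measured genes and above 98.8% of those with a count sum of at least 1000. In CPM the gain of Ikzf3 was 288.8, against 395.1 summed over the family.

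Ikzf2 (ENSMUSG00000025997, chromosome 1, 69531214 to 69687245), which encodes Helios, had 1310 and 741 counts, or 58.0 (54.9 to 61.2) and 28.5 CPM (26.5 to 30.6). The ratio was 2.04 (1.86 to 2.23), above 97.1% of measured genes, and its interval overlapped that of Ikzf3. The genes nearest to Ikzf2 in log2 CPM were Cxcr5, the homing receptor of follicular helper cells, with 1296 and 671 counts, Bcl2a1d, a survival gene of the Bcl2 family with near-identical copies, with 1454 and 739, and Gpr18 with 1434 and 693. Stx11 and Cdc14a followed, and the distances of the 5 genes ran from 0.14 to 0.27 over 2 libraries.

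Ikzf4 (ENSMUSG00000002578, chromosome 10, 128630843 to 128645991), which encodes Eos, was the scarcest member, with 116 counts after 2.5HIP-PLG and 203 without. These are 5.14 (4.25 to 6.16) and 7.80 CPM (6.76 to 8.95), and the intervals do not overlap. The gene was 1.52-fold lower (1.20 to 1.92), just inside the size rule. Lower calls were common at such depth, with 16.7% of the 6880 genes with a count sum of 20 to under 1000 called lower.

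Ikzf5 (ENSMUSG00000040167, chromosome 7, 131388652 to 131410521), which encodes Pegasus, had 1029 and 1203 counts, or 45.6 (42.8 to 48.4) and 46.2 CPM (43.6 to 48.9). The ratio was 0.986 (0.907 to 1.07), so a difference beyond that interval was not seen at this depth. Its expected counts of 1028.5 and 1203.22 were not whole, and 4652 bases of its exons are shared with Pstk on the opposite strand, a kinase gene of selenocysteine tRNA, which had 323 and 421 counts. The strand setting of the counting is not given in the sources used here, so the division between Ikzf5 and Pstk is uncertain. Summed over both genes, the ratio was 0.960 (0.892 to 1.03).

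The other members shared few exon bases with neighbours. Ikzf2 shared 144 bases with the antisense gene Gm29114, which had 1 count in each library, and Ikzf4 shared 37 bases with Gm26876, which had 0 and 1. Ikzf1 and Ikzf3 shared none with any annotated gene that has a row in the table. Counts of Ikzf1, Ikzf3 and Ikzf4 were whole in both libraries, and that of Ikzf2 was 1309.99 and 741.

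**Figure D2:**
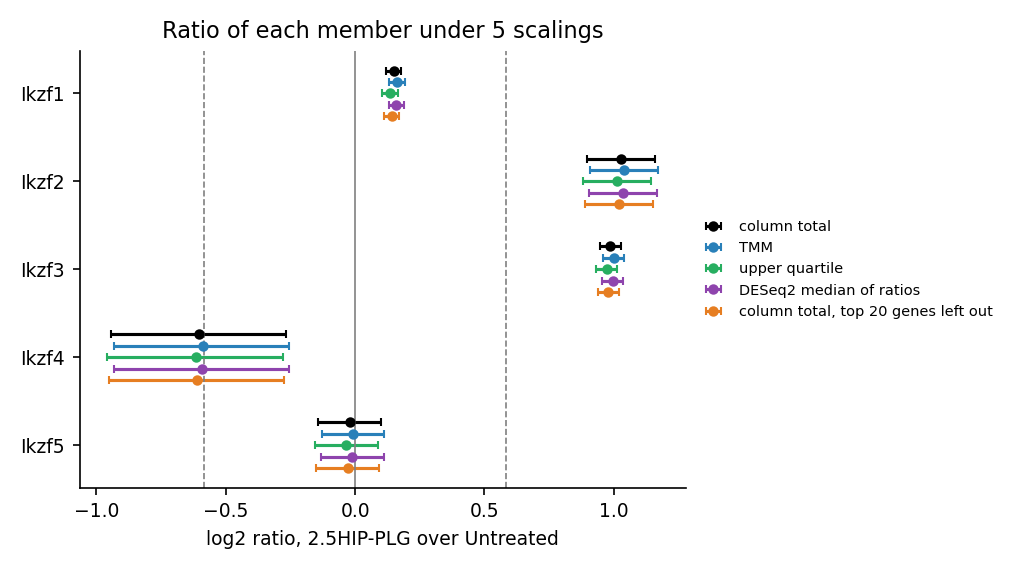
Log2 ratio of 2.5HIP-PLG over untreated for each member, with exact 95% intervals for counting error, under column total scaling and 4 other scalings; the solid line is no difference and the dashed lines are a ratio of 1.5 in either direction. The points of a member lie close together, with Ikzf2 and Ikzf3 near a log2 ratio of 1 and Ikzf4 at the lower dashed line.

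**Figure D3:**
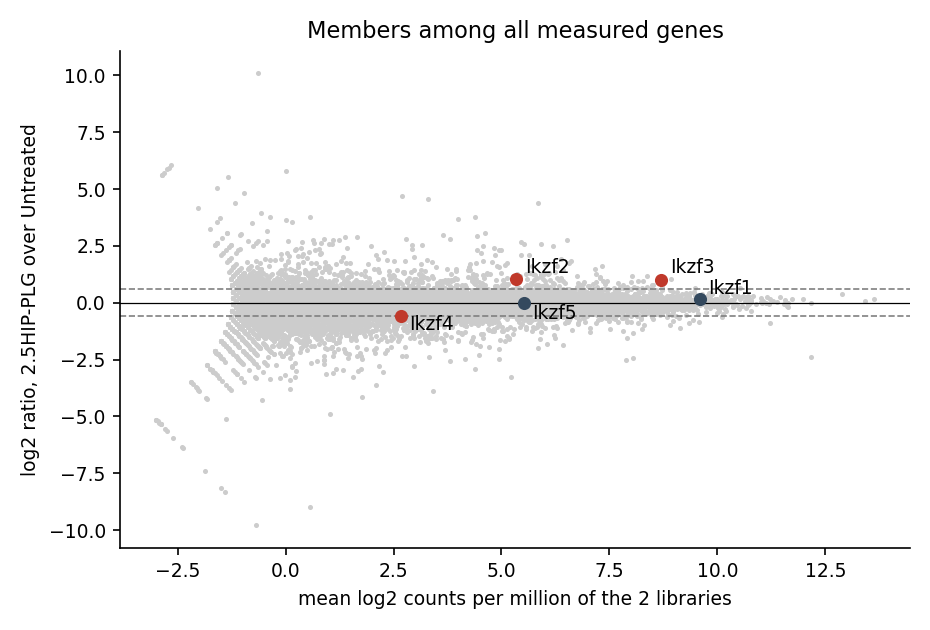
Log2 ratio against mean log2 CPM for the 13902 measured genes (grey points), with called members in red and the others in dark blue; dashed lines are a ratio of 1.5. Ikzf1, Ikzf2, Ikzf3 and Ikzf5 lie where the grey cloud is narrow, and Ikzf4 lies where it widens.

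The ratio of a pair of genes within a library does not depend on how the libraries were scaled, so the balance of the family was compared in that way. For every 100 Ikzf1 counts the 2.5HIP-PLG library held 71.8 Ikzf3 counts and the untreated library 40.2, a 1.79-fold difference (95% interval 1.73 to 1.85). For every 100 Ikzf1 counts there were 7.15 and 3.89 Ikzf2 counts, a 1.84-fold difference (1.67 to 2.02). Helios and Aiolos thus stood higher against Ikaros by similar factors. The Ikzf3 to Ikzf2 ratio differed between libraries by a factor of 0.972 (0.884 to 1.07), an interval that includes 1.

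Eos and Pegasus went the other way against Ikaros. Ikzf4 per Ikzf1 count differed by a factor of 0.594 (0.468 to 0.751) and Ikzf5 per Ikzf1 count by 0.889 (0.815 to 0.970). The Pegasus factor was far short of the size rule. Ikzf5 itself had a ratio of 0.986 (0.907 to 1.07), beside 1.11 for Ikzf1. Of the 10 pairs of members the factor farthest from 1 was that of Eos and Helios, both linked to regulatory T cells, with 8.86 Ikzf4 counts per 100 Ikzf2 counts after 2.5HIP-PLG and 27.4 without, a factor of 0.323 (0.251 to 0.416). That of Eos and Aiolos was nearly the same, at 0.332 (0.262 to 0.420). These are counts and not levels per length, which is why only their change between libraries is read.

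Levels of different members compare only per length, here as CPM per kb of merged exons. Ikzf1 stood at 140.5 and 126.7 CPM per kb after 2.5HIP-PLG and without treatment, above 97.6% and 97.4% of measured protein-coding genes. Ikzf3 followed at 66.6 and 33.6 CPM per kb, above 94.7% and 88.2% of those genes. Ikzf5 (7.97 and 8.08 CPM per kb), Ikzf2 (4.996 and 2.45) and Ikzf4 (0.857 and 1.301) were much lower, in that order in both libraries, and the counting intervals of neighbours in the order did not overlap in either library. Helios thus passed from above 29.4% of protein-coding genes without treatment to above 44.0% after 2.5HIP-PLG, while remaining a minor part of the family.

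Ikaros and Aiolos together made up 93.8% and 93.1% of the family's summed level per kb. Within that, Ikzf1 held 63.6% after 2.5HIP-PLG and 73.6% without treatment, and Ikzf3 held 30.1% and 19.5%. Ikzf2 held 2.26% and 1.42%. The length of Ikzf3 matters here, since its merged exons of 8.75 kb include a retained intron model while its longest protein-coding transcript has 3.66 kb. Per kb of the longest protein-coding transcript, a choice made after seeing the data, Aiolos reached 159.4 CPM per kb after 2.5HIP-PLG beside 157.2 for Ikaros, and 80.4 beside 141.7 without treatment. The order of these 2 genes after 2.5HIP-PLG therefore rests on the length used. A gene's length is the same in both libraries, so it does not affect the ratio of any member between them. Counts per gene do not separate the splice forms of these genes, some of which lack DNA-binding fingers.

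**Figure D4:**
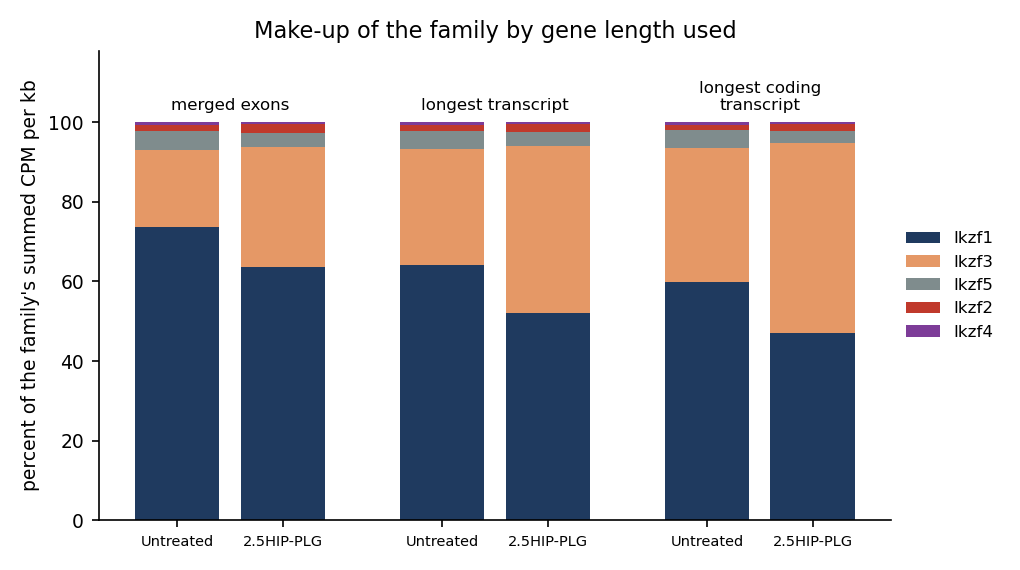
Share of each member in the family's summed level per kb (stacked bars, percent) in the untreated and the 2.5HIP-PLG library, with gene length taken as merged exons, the longest transcript or the longest protein-coding transcript. The bars show how far the shares of Ikzf1 and Ikzf3 depend on the length used, from 63.6% and 30.1% to 47.1% and 47.7% after 2.5HIP-PLG.

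Few genes of the chromatin complexes through which Ikaros family proteins act were called, as was so for genes of such abundance in general (2.71% higher and 2.86% lower at a count sum of at least 1000). Of 14 NuRD genes, 0 were called in either direction, with ratios from 0.807 to 1.17 and a median log2 ratio of -0.02. Chd4, the remodelling subunit bound by Ikaros, had 14496 and 16369 counts (1.02, 0.999 to 1.04), and Mta2 had 10243 and 11780 (1.00, 0.976 to 1.03). The Chd4 relative Chd3 had 8856 and 12657 counts (0.807, 0.785 to 0.829). None of 7 Sin3 and CtBP corepressor genes and none of 11 SWI/SNF remodelling genes was called, with median log2 ratios of 0.03 and 0.05. Ctbp2, with 13 and 9 counts, had a ratio of 1.67, but its interval of 0.659 to 4.42 includes 1. Of 5 Polycomb repressive complex 2 genes 1 was called higher, the accessory subunit Jarid2, with 2580 and 1938 counts (1.54, 1.45 to 1.63).

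Genes for control of the Ikaros proteins were likewise not called, as was so for most genes of such abundance. At a count sum of at least 1000, 2.71% were higher and 2.86% lower, so these counts do not set the genes apart. The cereblon ubiquitin ligase is the enzyme through which thalidomide-type drugs destroy human Ikaros and Aiolos. None of its 5 genes was called, and ratios ran from 1.04 to 1.22. None of 6 genes of casein kinase 2, which phosphorylates Ikaros, and protein phosphatase 1, which reverses this, was called, with ratios from 0.885 to 1.15.

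Genes reported elsewhere as targets of Ikaros family factors in T cells had no common direction. Of 20 such genes 16 were measured, of which 3 were higher, 3 lower and 10 neither. Over all measured genes 5.15% were higher and 9.7% lower. The higher targets were Il10, Eomes and Foxp3, and the Foxp3 value is uncertain, as given below. The median log2 ratio of the measured targets was -0.19. Il2, the cytokine gene that Ikaros and Aiolos repress, was almost silent, with 13 and 19 counts (0.789, 0.358 to 1.68). Tbx21, the master factor of type 1 helper cells, had 6889 and 7893 counts (1.01, 0.974 to 1.04). Il10, an anti-inflammatory cytokine gene that Ikaros can promote, had 85 and 8 counts, a ratio of 12.2 (5.94 to 29.3). Eomes, a factor of memory and cytotoxic T cells, had 735 and 360 counts (2.35, 2.07 to 2.68).

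The lower targets included Notch3, a receptor of the Notch pathway, on which Ikaros acts in T cell precursors. Counts of Notch3 were 18 after 2.5HIP-PLG and 375 in the untreated library, which is 18.1-fold lower (11.3 to 30.8), whereas Dtx1 had 4637 and 7592 counts (0.704, 0.679 to 0.731), short of the size rule. The Notch target Hes1 had 5 and 11 counts, below the count minimum, and Ptcra had 0 in both. Ahr, a ligand-activated transcription factor named after its values were seen, was lower as well (2.10-fold, 1.60 to 2.78). No binding was measured here, and these counts do not show which genes the members act on.

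**Figure D5:**
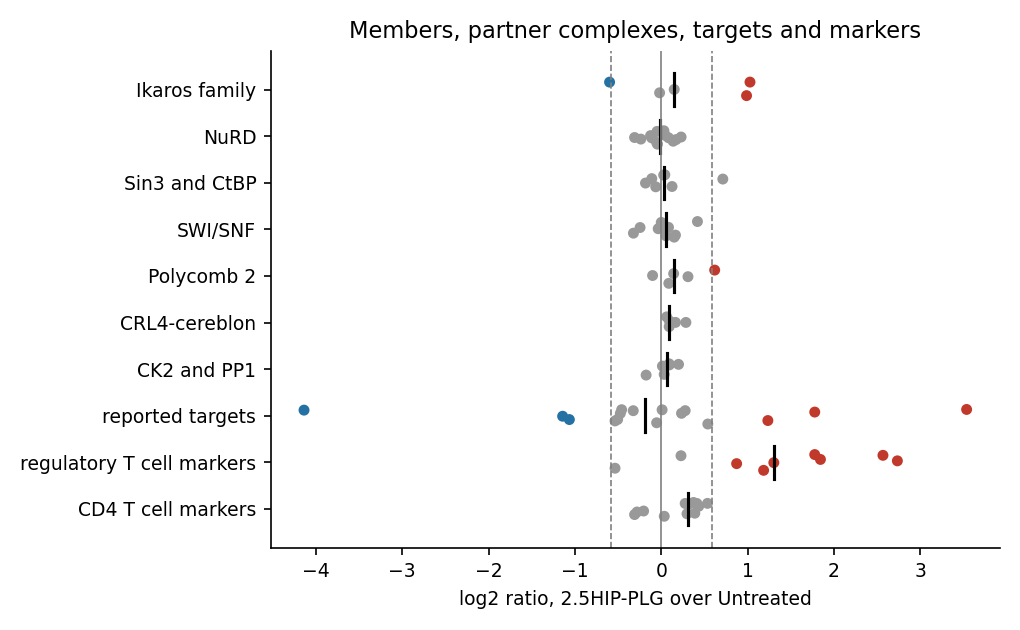
Log2 ratio of each measured gene in the Ikaros family, in its partner complexes, among its reported targets and among markers of regulatory and CD4 T cells; red is called higher, blue lower and grey neither, black bars are medians and dashed lines a ratio of 1.5. Partner complexes cluster near 0, targets spread to both sides and regulatory T cell markers lie mostly to the right.

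Most measured regulatory T cell markers were higher, as was Helios. The sort had left out cells with the Foxp3 reporter. Of 9 measured regulatory markers of 10, 7 were higher, 0 lower and 2 neither. The 7 include Foxp3 as deposited. Over all measured genes 5.15% were higher and 9.7% lower, and the list was chosen with earlier results of these data known. The median log2 ratio of the markers was 1.303. Their summed level was 802.5 CPM after 2.5HIP-PLG and 374.5 CPM without, and no marker was at 0 in both libraries. Foxp3 had 1157 and 389 counts (3.43, 3.06 to 3.86), Izumo1r 4190 and 1346 (3.59, 3.38 to 3.82) and Nrp1 5123 and 3227 (1.83, 1.75 to 1.91). Several of these genes, Ctla4 and Izumo1r among them, are also expressed by activated or anergic T cells. The Foxp3 value is uncertain, because its expected counts were not whole and its exons share bases with 4 annotated genes, from which its reads may not have been told apart. Ccdc22, on the opposite strand, had 775 and 1381 counts, and summed over Foxp3 and Ccdc22 the ratio was 1.26 (1.18 to 1.34), which is not called. Summed with Ppp1r3f instead it was 1.94 (1.77 to 2.12), with Gm36995 2.50 (2.27 to 2.77) and with Flicr 3.33 (2.97 to 3.73).

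As deposited, the Foxp3 ratio was larger than that of Helios, and the Eos ratio lay on the other side of 1. There were 113.2 Ikzf2 counts per 100 Foxp3 counts after 2.5HIP-PLG and 190.5 without, a factor of 0.594 (0.512 to 0.690). For Ikzf4 these values were 10.03 and 52.2, a factor of 0.192 (0.148 to 0.2499). The order of Helios and Foxp3 may depend on how reads were divided between Foxp3 and its neighbours. Summed with Ccdc22 (1.26) or with Ppp1r3f (1.94), the ratio lies below the 2.04 of Ikzf2. These sums take in all reads of a neighbour that shares only 590 or 266 exon bases with Foxp3. They therefore do not give the ratio of Foxp3 itself. Il2ra, another marker of regulatory and of activated T cells, had 812 and 1358 counts (0.690, 0.631 to 0.753). The part of regulatory T cells in the Ikzf2 and Ikzf4 values was not tested.

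Aiolos is abundant in B cells, and the B cell list gave a mixed picture. Its defining genes were close to 0, with Ms4a1 at 0 and 0 counts, Cd79a at 2 and 3 and Pax5 at 1 and 6, beside 13163 and 7657 for Ikzf3. Of 10 genes only 3 were measured. Ighm (3761 and 2641 counts) and Cd22 (389 and 228) were higher, while Blk (97 and 166, ratio 0.674) was not called. The list summed to 188.7 and 117.9 CPM. For comparison with this and the next lists, 5.15% of all measured genes were called higher and 9.7% lower. Natural killer cells also express Aiolos and Helios. Of 7 of their markers 2 were higher and 3 lower, and only 2 had a ratio above 1. The higher ones were Klra8, at 80 and 7 counts (13.2, 6.11 to 33.8), and Eomes. Klrb1c had 21 and 52 counts and Ncr1 54 and 96. The 7 markers summed to 82.7 and 86.4 CPM, of which Eomes, also a T cell factor, gave 32.55 and 13.83 CPM. Gamma-delta T cell markers, with 0 of 4 called, summed to 58.7 and 61.5 CPM.

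Markers of the remaining cell types were present too. Most of their summed levels were not small beside Ikzf2 (58.0 and 28.5 CPM) or Ikzf4 (5.14 and 7.80 CPM). Over all measured genes 5.15% were called higher and 9.7% lower. Macrophage markers had 2 of 9 higher (47.3 and 43.6 CPM), dendritic cell markers 1 of 7 lower (95.6 and 127.6 CPM), erythroid markers 1 of 7 higher and 1 lower (57.8 and 58.3 CPM), mast cell and basophil markers 3 of 4 higher (29.3 and 21.6 CPM) and neutrophil markers 2 of 3 higher (13.5 and 3.61 CPM). Kit, which was not called, gave 12.93 and 18.09 CPM of the mast cell and basophil sum. Of the dendritic cell sum, Cd74 gave 46.15 and 59.19 CPM and Bst2 30.96 and 37.64 CPM. Hmox1 gave 20.90 and 17.17 CPM of the macrophage sum. Cd74, Bst2 and Hmox1 were not called either. A sum that rests on few genes does not measure how much RNA a cell type gave. Of the CD8 T cell markers, Cd8a had 0 and 9 counts and Cd8b1 304 and 272. The part of these cells in the members' values was not tested.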

How the data were processed

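Values were 2 columns of expected counts per gene, 1 per group, matched to the labels by title. The authors' deposited expected counts are estimates in which a read that matches several genes is split between them. Per the submitters' processing notes, they came from STAR and RSEM 1.3.1 with the GRCm38 build. Libraries were made from total RNA with an mRNA kit, per the labels' protocols. Not given in the sources used here are the STAR version, annotation, filters, read length and strand setting. Counts were rounded to whole numbers, since 88.9% and 88.2% of rows were whole, and scaled by column total. Genes with a count sum of at least 20 were measured. Ratios carry exact conditional binomial (Clopper-Pearson) 95% intervals, ratios of a pair of genes within libraries exact conditional odds ratio intervals, and log2 ratios 0.5 added counts. A count of 0 allows up to 0.133 CPM after 2.5HIP-PLG and 0.115 CPM without treatment (3 counts). No molecular identifiers are described, so counting error is all that intervals and floors cover.

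Exon lengths and coordinates came from GENCODE M21, and finger sequences from its transcripts. The members, the gene lists and the tests were chosen with earlier results of these data known. Genes open to naming were the 5 members and, per list, up to 4 called and the 3 most abundant genes. The nearest genes to Ikzf2 and Ikzf1 by log2 CPM were named too. Not every gene open to naming was named, and for several lists none was. Other list members named (among them Il2, Hes1, Ptcra, Ahr, Il2ra, Ctla4, Ctbp2, Ncr1 and the near-0 B cell genes) and the overlapping genes were chosen after their values were seen. A few list members are not reported here by name. The calculation was tested on simulated counts. Alternatives were TMM (edgeR 4.0.16), the median of ratios of DESeq2 1.42.0, upper quartile and column total without the 20 most abundant genes as scaling, unrounded counts, a required ratio of 2, a 99% interval, count minimums of 10 and 100, no minimum, and 2 other gene lengths. Python 3.11.15, scipy 1.17.1, R 4.3.3 and matplotlib 3.10.9 were used.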

Additional observations from a re-analysis of the deposited data

How the results depend on the processing

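No paired analysis was possible because each group has 1 library. Over 4 other scalings and unrounded counts, each member stayed on the same side of 1, though the Ikzf5 interval included 1 throughout. The other scalings put the untreated library at 1.14 to 1.16 times the size of the 2.5HIP-PLG library, beside 1.15 by column total. They could thus move a ratio only slightly. A required ratio of 2 and a 99% interval leave the ratio itself unchanged, so they bear on calls alone. Calls of members changed only with a required ratio of 2, under which Ikzf3 (1.98) and Ikzf4 (0.659) were no longer called and 1 member was, Ikzf2. Over the scalings the ratio ran from 2.02 to 2.06 for Ikzf2, from 1.96 to 1.999 for Ikzf3, from 0.652 to 0.664 for Ikzf4, from 1.10 to 1.12 for Ikzf1 and from 0.976 to 0.995 for Ikzf5. Over all genes, 716 higher and 1348 lower became 387 and 808 with a ratio of 2, and, where count sums had to reach 100, 473 and 748. Of 180 counts of list members under an alternative, 170 stayed within 1.5 times the reported one. The 170 include lists with 0 called throughout, such as NuRD and the CD4 T cell markers, which had no call to lose. With the longest transcript as gene length, Ikzf1 made up 52.2% of the family per kb after 2.5HIP-PLG and 64.3% without, and Ikzf3 42.0% and 28.9%. With the longest protein-coding transcript, added after seeing the data, these were 47.1% and 59.8%, and 47.7% and 33.9%. Depth limits Ikzf4 most, and the lack of replicates limits every ratio.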
